A study of Mus musculus with 4 samples.

Results

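Described here are 9 genes that encode the adaptors of the TRIF branch of Toll-like receptor signalling and the kinases and regulatory subunit of the IKK family: Ticam1, Ticam2, Traf3, Tank, Tbk1, Ikbke, Chuk, Ikbkb and Ikbkg. They were chosen as named genes and matched on the gene name in the deposited transcript identifiers, which gave 9 of 55536 genes. The RNA was polyadenylated RNA from macrophages grown from the bone marrow of C57BL/6J mice, sequenced in 4 libraries of 1 group, replicates 1 to 4, each with 1 technical replicate. All cells had received 100 ng/mL of a stimulus for 60 min, which one label calls lipid A, the Toll-like receptor 4 ligand of bacterial lipopolysaccharide, and others call lipoprotein A. All carry the same donor label with no statement of separate mice or cultures, so the p-values of a contrast between libraries rest on a spread that may be technical and measure only that. Unstimulated cells were not analysed here, so the values are levels in stimulated cells and none of them measures a response.

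Toll-like receptor 4 signals through a pair of adaptor routes. At the cell surface MyD88 leads to the IKK complex, made of the kinases IKKα and IKKβ and the regulatory subunit NEMO, which phosphorylates IκB proteins and so frees NF-κB. After internalisation the receptor uses TRAM and TRIF, which recruit the ubiquitin ligase TRAF3 and the IKK-related kinases TBK1 and IKKε, held on scaffolds such as TANK, and these kinases phosphorylate IRF3, the factor that switches on interferon-β in macrophages.

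Gene counts summed to between 26917324 and 39438414 per library. All 7 macrophage markers (such as Lyz2 and Csf1r) were at 1 TPM or above in every library, and their summed level was 19486 to 35124 TPM; TPM is a relative transcript level scaled for transcript length. The summed level of 6 neutrophil precursor markers was 23.3, 9.59, 89.9 and 5.12 TPM in replicates 1 to 4, with 2 of the 6 at 1 TPM or above in every library, and was highest in replicate 3. Summed levels of the T and NK cell, B cell, dendritic cell and stromal marker lists were at most 7.07 TPM, and no marker of any list was at 0 in every library. Ribosomal RNA took 12.4, 3.43, 4.700 and 7.28% of gene counts in replicates 1 to 4, so replicate 1 had both the lowest count and the highest ribosomal share. In bulk RNA, fewer cells of a type and less RNA per cell cannot be told apart.

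All 9 genes were at 1 TPM or above in every library. In mean TPM the order was Tank, Ikbke, Tbk1, Ikbkb, Ticam1, Chuk, Ticam2, Ikbkg and Traf3, and the means spanned 111 ± 24.8 TPM for Tank to 9.60 ± 1.96 TPM for Traf3 (SD, n = 4). The median of the 9 was 31.5 TPM, beside 16.9 TPM for the 10250 genes at 1 TPM or above in every library. Of the 8 pairs of neighbours in this order, 5 had TPM ranges in the gene table that did not overlap. The neighbours with overlapping ranges were Tank and Ikbke, Ikbke and Tbk1, and Ticam2 and Ikbkg, each of which stood in the stated order in 3 of 4 libraries. The plot of levels by gene shows these steps. In the median gene of the 9, the second quantification was 74.5, 72.3, 95.6 and 92.1% of the TPM in the gene table in replicates 1 to 4, so how steady a TPM is between libraries depends on the table; TPM below is from the gene table unless stated.

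**Figure D1:**
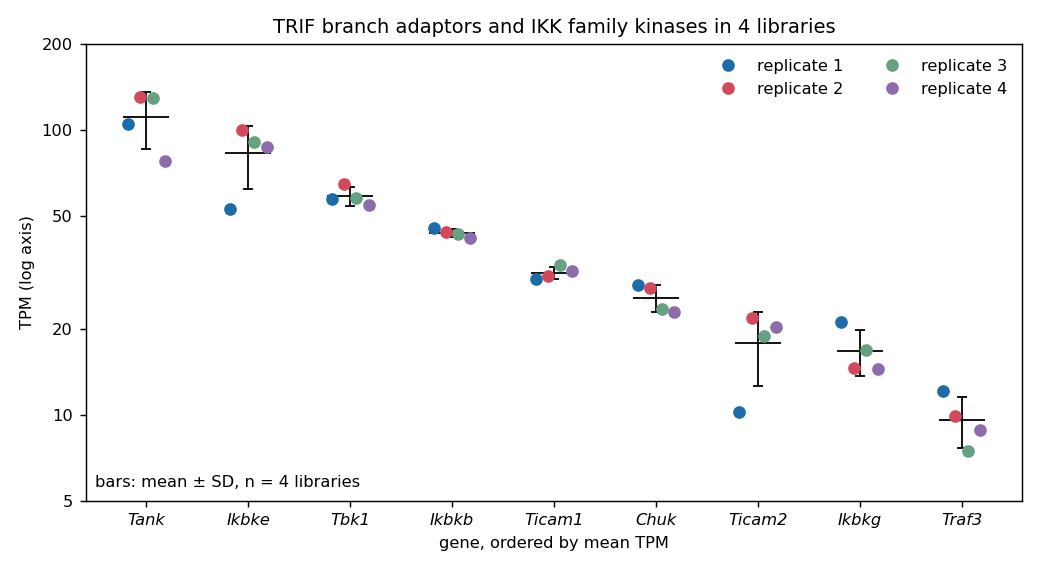
TPM on a log axis of each of the 9 genes in the 4 libraries, ordered by mean TPM. Coloured points are replicates 1 to 4, and bars are the mean ± SD over 4 libraries; Tank and Ikbke lead, Traf3 is lowest, and replicate 1 lies apart from the other libraries for Ikbke and Ticam2.

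The adaptors next to the receptor differed in level and in their range of scaled counts. Ticam1 (ENSMUSG00000047123.8, chr17:56269319-56276786 on mm10, minus strand) encodes TRIF, the adaptor that carries the signal to TBK1. Its level was 30.02, 30.59, 33.59 and 31.97 TPM in replicates 1 to 4 (mean 31.5 ± 1.59 SD, n = 4). The gene has 1 annotated transcript, so none of this level depends on a split between isoforms. The second quantification, made directly from the reads, gave 19.6, 19.0, 28.3 and 26.5 TPM. By TPM the libraries were thus close together in the gene table and apart in the other. With counts scaled to a common effective library size, the highest library was 1.23 times the lowest in the gene table. In the second quantification it was 1.24 times the lowest.

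Ticam2 (ENSMUSG00000056130.10, chr18:46557291-46574533, minus strand) encodes TRAM, the bridging adaptor that links Toll-like receptor 4 to TRIF. Its level was 10.2, 21.9, 18.9 and 20.3 TPM in replicates 1 to 4 (mean 17.8 ± 5.20 SD, n = 4). Replicate 1 was the low library, and the other libraries lay close together. Counts scaled to a common effective library size gave the same picture, with 818, 1831, 1702 and 1793 in replicates 1 to 4, and replicate 1 is also the library with the most ribosomal RNA; the part of that share in the low value was not tested.

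Ticam2 shares 838 exonic bases, 14.5% of its exonic length, with Tmed7 on the same strand, so reads in that stretch are uncertain between these genes. Tmed7, which encodes a cargo receptor of the early secretory pathway, stood at 75.8, 78.3, 51.9 and 71.5 TPM in replicates 1 to 4. Its highest and lowest scaled counts differed 1.17-fold, beside 2.24-fold for Ticam2, and its low library by TPM was replicate 3. The transcript Ticam2-201 took 97.1% of the gene's TPM on average, the mean of 94.9, 97.4, 98.7 and 97.2% in replicates 1 to 4.

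The ratio of Ticam1 to Ticam2 TPM was 2.93, 1.40, 1.78 and 1.57 in replicates 1 to 4. TRIF transcripts thus exceeded TRAM transcripts in every library, by most in replicate 1.

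Traf3 and its partner Tank stood at opposite ends of the order. Traf3 (ENSMUSG00000021277.16, chr12:111166370-111267153, plus strand) encodes the ubiquitin ligase that joins TRIF to TBK1 and that also restrains noncanonical NF-κB signalling. Its level was 12.1, 9.92, 7.49 and 8.87 TPM in replicates 1 to 4 (mean 9.60 ± 1.96 SD, n = 4), highest in replicate 1 and lowest in replicate 3. Of the 10250 genes at 1 TPM or above in every library, 33.7% had a lower mean TPM.

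Tank (ENSMUSG00000064289.15, chr2:61578585-61654171, plus strand) encodes a TRAF-binding scaffold of TBK1 and IKKε, also known in mice as a brake on Toll-like receptor signalling. Its level was 104.9, 129.9, 129.8 and 77.9 TPM in replicates 1 to 4 (mean 111 ± 24.8 SD, n = 4). Replicate 4 was the low library and replicates 2 and 3 were nearly equal. The second quantification gave 76.9, 90.5, 124.1 and 71.7 TPM, also lowest in replicate 4 but with replicates 2 and 3 apart. Tank ranked 1104 among the 10250 genes, the highest rank of the 9, and the ratio of Traf3 to Tank TPM was 0.116, 0.0764, 0.0577 and 0.114 in replicates 1 to 4.

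Tank transcripts began at separate places. Those with annotated starts from 61578585 to 61578611 took 65.4, 57.8, 66.7 and 63.3% of the gene's TPM in replicates 1 to 4, and those with starts from 61593077 to 61593165 took 32.2, 35.1, 28.8 and 30.9%. The upstream group was the larger in every library, and the second transcript table gave a mean of 66.2% for it. Shares by start rest on the annotated transcript models, since these tables hold no reads over the starts themselves.

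The sequences just upstream of these starts are shown because Tank and Traf3 were the members whose windows held a match to the κB consensus, the decameric element bound by NF-κB dimers. RefSeq promoters on GRCm38.p6 matched 7 of 9 genes (all but Ticam2 and Ikbkb), giving 13 windows of the 250 bases before a start. Both strands were searched. Of these windows, 5 held a κB match, beside 7.25% of all 32851 RefSeq windows. Of these 5, 4 are Tank windows, an overlapping pair at the upstream start and another at the downstream start. The windows of a pair hold the same match, so the 5 windows do not hold 5 separate sites. No window held the interferon-stimulated response element core (GAAA, any 2 bases, GAAA), which 2.98% of all windows held, and AP-1 sites (TGANTCA, 6.75% of all windows) were in 1 window of Tank and 3 of Ikbkg. Each sequence is given 5′ to 3′ on the plus strand with the match in capitals, and the match of the upstream Tank window reads as the consensus on the minus strand. A match describes the letters and not binding.
Tank downstream start, chr2:61592847-61593096: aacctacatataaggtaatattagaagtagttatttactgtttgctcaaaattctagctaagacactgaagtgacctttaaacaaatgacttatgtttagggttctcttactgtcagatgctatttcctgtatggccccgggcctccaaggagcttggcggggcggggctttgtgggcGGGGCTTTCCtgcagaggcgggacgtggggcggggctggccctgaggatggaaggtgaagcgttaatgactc
Tank upstream start, chr2:61578336-61578585: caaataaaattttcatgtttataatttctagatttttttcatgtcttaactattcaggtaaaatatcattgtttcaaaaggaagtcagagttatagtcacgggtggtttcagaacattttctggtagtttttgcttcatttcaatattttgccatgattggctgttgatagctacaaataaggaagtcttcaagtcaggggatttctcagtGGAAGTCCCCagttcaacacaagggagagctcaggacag
Traf3, chr12:111166120-111166369: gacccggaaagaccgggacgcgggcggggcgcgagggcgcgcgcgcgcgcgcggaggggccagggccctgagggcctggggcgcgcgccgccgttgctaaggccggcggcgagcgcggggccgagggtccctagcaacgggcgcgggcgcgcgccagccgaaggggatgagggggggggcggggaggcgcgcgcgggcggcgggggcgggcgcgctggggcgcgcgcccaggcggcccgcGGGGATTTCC
The match began 72 bases before the downstream Tank start, 39 bases before the upstream Tank start and 10 bases before the start of the transcript Traf3-203. Both groups of Tank transcripts therefore had annotated starts just after a match, with that of Tank-203 (61593077) inside the downstream window. Traf3-203 (start 111166370) held a mean of 4.01 and 2.69% of the Traf3 TPM in the first and second transcript tables. The leading transcript Traf3-201 has its annotated start at 111166463, farther from the match.

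Of the IKK-related kinases, Tbk1 had the smaller range of scaled counts between libraries and Ikbke the larger. Tbk1 (ENSMUSG00000020115.3, chr10:121546455-121586787, minus strand) encodes TBK1, the kinase that phosphorylates IRF3 in most cells. Its level was 57.1, 64.7, 57.6 and 54.4 TPM in replicates 1 to 4 (mean 58.4 ± 4.39 SD, n = 4). Its scaled counts of 2997, 3331, 3157 and 3095 differed at most 1.11-fold, the smallest range of the 9 genes.

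Ikbke (ENSMUSG00000042349.13, chr1:131254343-131279606, minus strand) encodes IKKε, the inducible relative of TBK1. Its level was 52.9, 99.8, 91.0 and 87.0 TPM in replicates 1 to 4 (mean 82.7 ± 20.5 SD, n = 4), low in replicate 1 and close together in the other libraries, as for Ticam2. The ratio of Tbk1 to Ikbke TPM was 1.08, 0.648, 0.633 and 0.625 in replicates 1 to 4. Ikbke transcripts therefore exceeded Tbk1 transcripts in 3 of 4 libraries, and in replicate 1 the levels were nearly equal. The antisense genes Gm28914 and Gm28913 share 159 and 65 exonic bases with Ikbke and had at most 14 counts in any library, beside 2469 to 5838 for Ikbke.

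The ratio of Tbk1 to its scaffold Tank was 0.545, 0.498, 0.444 and 0.698 in TPM in replicates 1 to 4. Tank was the more abundant transcript in every library, by least in replicate 4, where Tank itself was low.

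The subunits of the canonical IKK complex stood in one order by full gene TPM in every library, with Ikbkb above Chuk and Chuk above Ikbkg, although on protein-coding transcripts alone Chuk was above Ikbkb in replicate 1. Ikbkb (ENSMUSG00000031537.15, chr8:22659212-22706589, minus strand) encodes IKKβ, the main IκB kinase of inflammatory signalling. Its level was 45.3, 43.8, 43.2 and 41.8 TPM in replicates 1 to 4 (mean 43.5 ± 1.44 SD, n = 4), the smallest SD of the 9 genes relative to its mean. No 2 libraries differed beyond the deposited credibility intervals of its TPM. By scaled count replicate 1 was the lowest library, at 2121 beside 2391 to 2510 in the others. The second quantification gave 33.1 ± 3.11 TPM for Ikbkb and 21.7 ± 1.26 TPM for Chuk (SD, n = 4). The rank of Ikbkb by relative SD therefore depends on the table. By scaled count its highest library was 1.18 times its lowest in both the gene table and the second quantification.

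Chuk (ENSMUSG00000025199.16, chr19:44073335-44107480, minus strand) encodes IKKα, which acts in the canonical complex and as the kinase of the noncanonical route. Its level was 28.5, 27.8, 23.6 and 23.0 TPM in replicates 1 to 4 (mean 25.7 ± 2.83 SD, n = 4), and replicates 1 and 2 lay above replicates 3 and 4, an order that the second quantification, with 22.6, 20.1, 22.8 and 21.2 TPM, did not give. The ratio of Chuk to Ikbkb TPM was 0.628, 0.635, 0.546 and 0.549 in replicates 1 to 4, so on full gene levels the IKKα transcript was the scarcer of the pair in every library. The protein-coding levels in replicate 1 were 27.00 TPM for Chuk and 26.3 TPM for Ikbkb.

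Ikbkg (ENSMUSG00000004221.16, chrX:74393290-74453854, plus strand) encodes NEMO, the ubiquitin-binding subunit without kinase activity. Its level was 21.1, 14.6, 16.9 and 14.5 TPM in replicates 1 to 4 (mean 16.8 ± 3.10 SD, n = 4), highest in replicate 1. Its TPM was 0.286, 0.204, 0.253 and 0.224 of the summed Chuk and Ikbkb TPM. Ikbkg overlaps G6pdx, a glucose metabolism gene on the opposite strand, by 418 exonic bases or 5.15% of its exonic length; G6pdx stood at 99.0 to 149.5 TPM, and because the strand setting is not given in the sources used here, reads in the overlap are uncertain.

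Ikbkg transcripts also began at several places. Those with starts from 74429281 to 74429763 took 66.5, 90.1, 75.7 and 83.7% of its TPM in replicates 1 to 4, and those with starts from 74424534 to 74424638 took 23.7, 6.502, 17.6 and 14.5%. The first of these groups was the larger in every library, with an SD of 10.2 percentage points over 4 libraries, beside 3.95 for the upstream Tank group.

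The 9 genes have 73 annotated transcripts, of which 30 reached a mean share of 5% of their gene's TPM in either transcript table. By mean share, the leading transcript was the same in both tables for 9 of 9 genes. Ticam1, Ticam2 and Tbk1 were carried mainly by 1 transcript, with Tbk1-201, annotated to encode 729 residues, at 85.2% of the gene's TPM in the first table, made from a transcriptome alignment, and 75.8% in the second, made from the reads. Tank and Ikbkg were the most divided by the share of the leading transcript. Of the Tank transcripts, Tank-205 (447 residues) held 37.4 and 42.9% in the first and second tables, Tank-201 (448 residues) held 21.2 and 16.0%, and Tank-202 (360 residues) held 16.1 and 16.1%.

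Noncoding transcripts weighed in the TPM of several of these genes. For Ikbkb, Ikbkb-201 (757 residues) held 61.4% of the TPM in the first table and the short processed transcript Ikbkb-213 held 27.2%, although Ikbkb-213 had only 3.78% of the gene's counts. The level of Ikbkb from protein-coding transcripts alone was 28.03 ± 1.42 TPM (SD, n = 4), 64.4% of its full level, which places it below Ticam1. For Tbk1 the retained-intron transcript Tbk1-207 held 9.93% of the TPM in the first table and 14.6% in the second. By counts in the first table Tbk1-207 had only 1.96%, beside 96.1% for Tbk1-201. For Ikbke the main transcript Ikbke-201 (717 residues) held 68.9 and 58.0% of the TPM in the first and second tables, with Ikbke-204 (693 residues) at 10.6 and 7.56%.

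Chuk was split between Chuk-201 (745 residues) at 68.6 and 62.3% in the first and second tables and Chuk-202 (719 residues) at 24.1 and 18.7%. In replicate 3 Chuk-202 was lower, at 14.2% of the gene's TPM in the first table and 11.9% in the second. Both tables thus had replicate 3 as the library with the smallest share of this transcript.

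For Traf3 the tables differed. Traf3-201 (567 residues) held 74.9, 77.4, 44.2 and 73.1% of the TPM in replicates 1 to 4 in the first table, and 51.4, 60.8, 53.2 and 55.3% in the second. By counts in the first table Traf3-201 held 93.6, 90.9, 60.6 and 91.7%. The short transcript Traf3-204 (97 residues) held a mean of 17.4 and 20.3% of the TPM in the first and second tables. It had only 1.22% of the counts in the first. The low TPM share of Traf3-201 in replicate 3 of the first table went with 20.96% for Traf3-202 (542 residues). The second table put Traf3-202 at 0.775% in that library. The retained-intron transcript Traf3-205 held 0, 0, 17.5 and 2.48% in the first table and 21.3, 15.8, 26.7 and 22.8% in the second and was higher in the second table in every library.

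For Ikbkg, Ikbkg-202 (411 residues) held 37.9, 42.5, 37.7 and 32.5% of the TPM in replicates 1 to 4 in the first table and 28.7, 31.5, 41.8 and 32.2% in the second. Ikbkg-203 (412 residues) held 15.9, 32.3, 2.90 and 33.5% in replicates 1 to 4 in the first table and 21.6, 33.9, 18.5 and 50.1% in the second. Replicate 3 was lowest for Ikbkg-203 in both, by different amounts. In that library Ikbkg-216 held 27.6% of the TPM in the first table and 14.3% in the second. Ikbkg-203 exceeded Ikbkg-202 in replicate 4 in both tables and in replicate 2 in the second, so Ikbkg-202 led by its mean and not in every library. The plot of transcript shares sets the tables beside each other for the 7 genes with more than 1 described transcript.

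**Figure D2:**
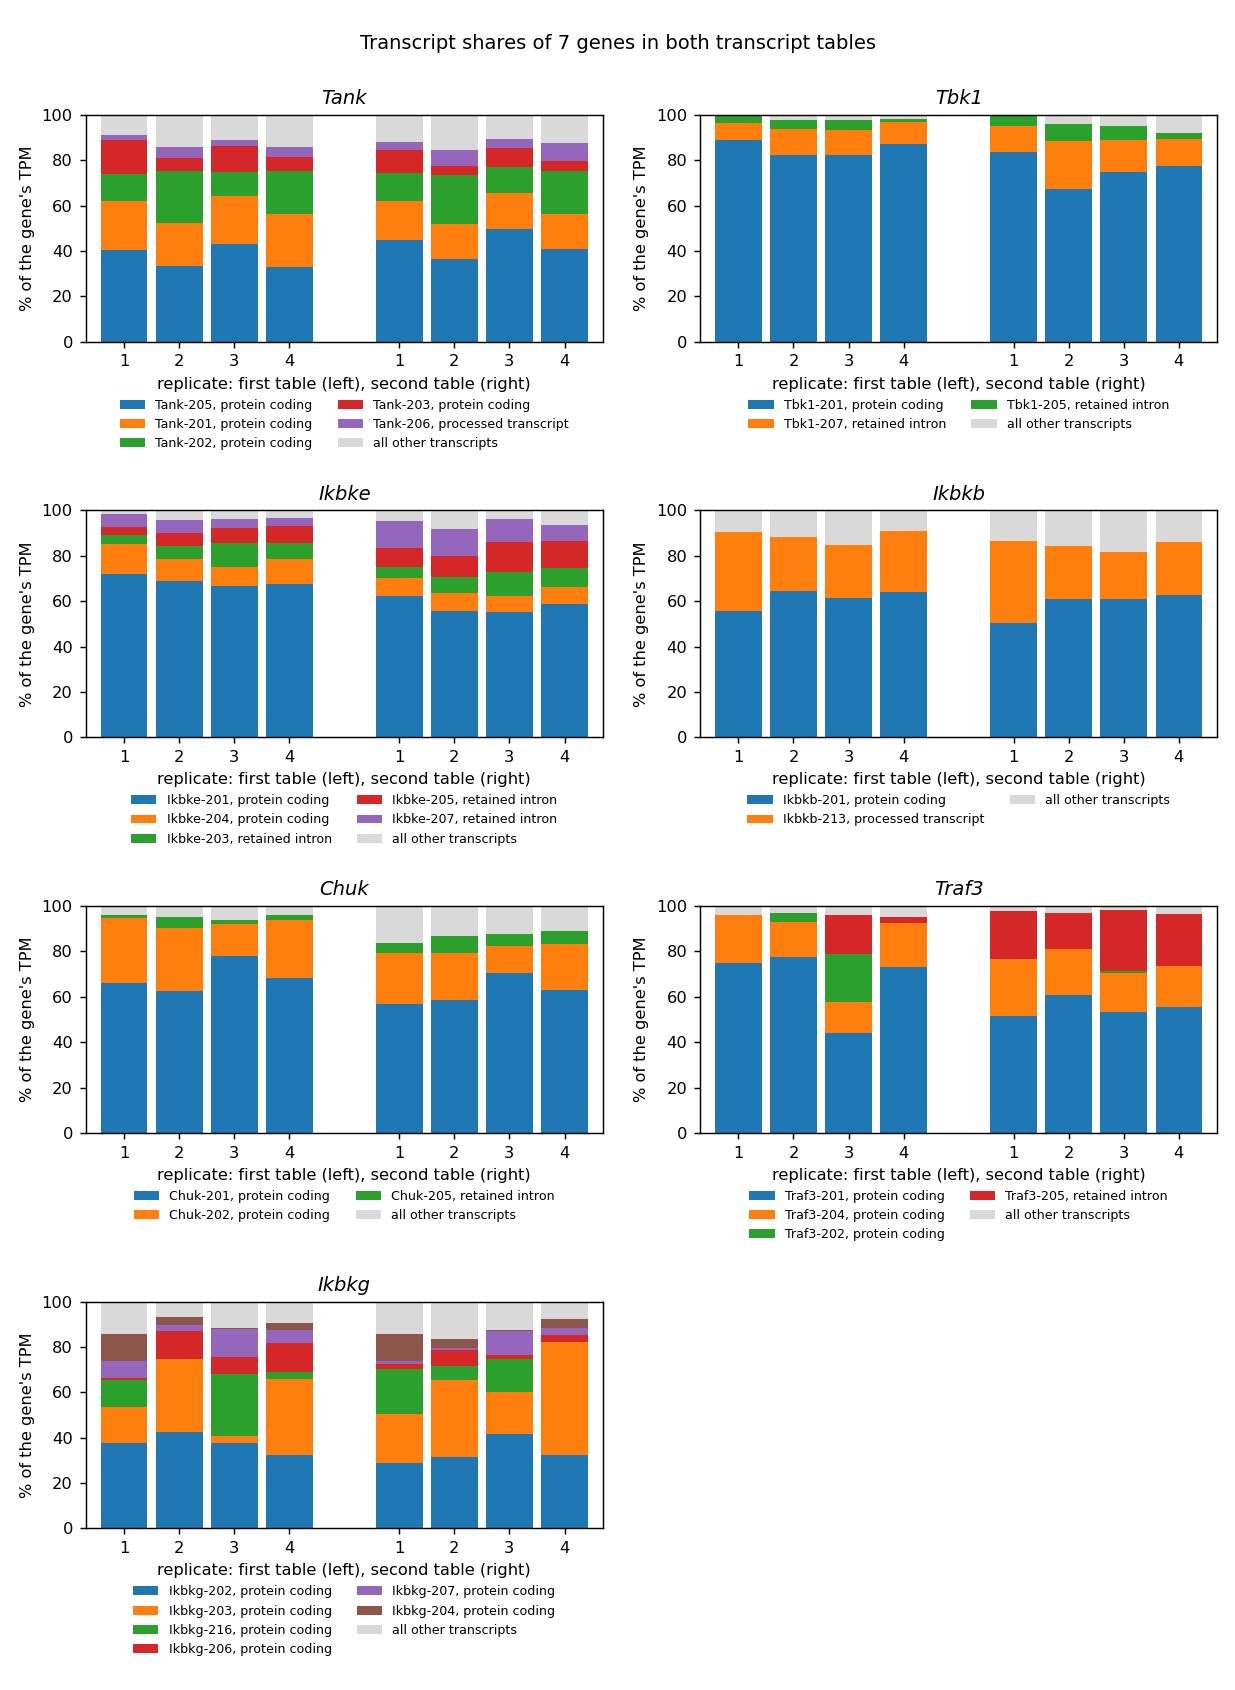
Share of the gene's TPM, in percent, held by each transcript with a mean share of at least 5% in either table, for 7 genes; in each panel the first transcript table is on the left and the second on the right, with 1 bar for each of replicates 1 to 4 and grey for all other transcripts. The leading transcript by mean share is the same in both tables, Traf3 differs visibly in replicate 3 of the first table, and the shares of Ikbkg-203 differ between libraries in both tables.

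The spread between libraries was tested over the whole table by a chi-square test of counts against counting noise with Benjamini-Hochberg adjustment. All 9 genes varied beyond counting noise, beside 88.3% of the 12626 genes tested, so this share is near that of all genes. A gene was called variable when its highest scaled count was also at least 2 times its lowest, which held for 1 of the 9, Ticam2, beside 33.1% of genes tested. With 1.5 times as the limit, 4 of 9 passed (Ticam2, Ikbke, Tank and Traf3) beside 57.8%. The test allows for counting error only. Because reads are not independent molecules, it can call more genes than true counting error would warrant.

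The ratios of highest to lowest scaled count were 2.24 for Ticam2, 1.87 for Ikbke, 1.68 for Tank and 1.60 for Traf3. For the other genes they were 1.23 for Ticam1, 1.18 for Ikbkb, 1.17 for Ikbkg, 1.16 for Chuk and 1.11 for Tbk1. The median of the 9 was 1.23, against 1.68 over all genes tested and 1.497 over the 5688 genes tested with mean TPM between those of Traf3 and Tank, of which 20.8% were variable. Of all genes tested, 28.3% had a larger ratio than Ticam2. Without replicate 1 the ratio of Ticam2 was 1.08 and none of the 9 genes was called variable by the same chi-square test, so the call rests on that library.

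**Figure D3:**
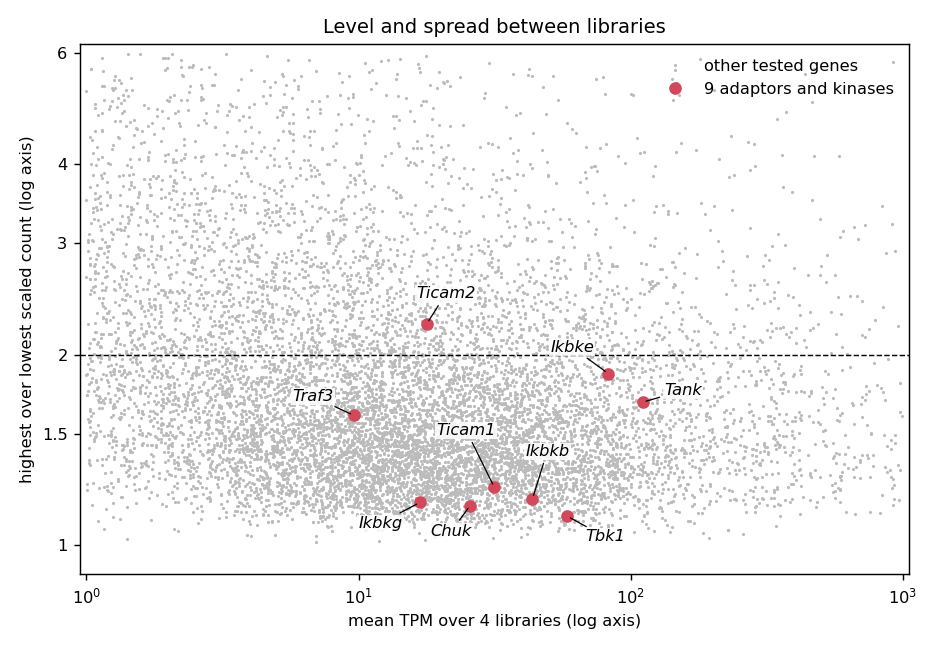
Mean TPM over 4 libraries against the ratio of highest to lowest scaled count, both on log axes, for 10453 of 12626 genes tested (those between 1 and 1000 TPM with a ratio up to 6); grey points are other genes, red points the 9 adaptors and kinases, and the dashed line the limit of 2. Ticam2 is the one red point above the line, and Ticam1, Ikbkb, Ikbkg, Chuk and Tbk1 lie at the lower edge of the cloud.

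The deposited tables also give a credibility interval for each TPM. Of the 9 genes, 7 had at least 1 of 6 pairs of libraries with intervals that did not overlap, beside 77.5% of the 10250 genes at 1 TPM or above in every library. Tank had 5 such pairs, Ticam2, Ikbke and Chuk 4 each, Ticam1 and Traf3 3 each and Tbk1 2, while Ikbkb and Ikbkg had none. For Ticam2 the interval was 8.80 to 10.3 TPM in replicate 1 and 19.5 to 21.5 TPM in replicate 2. The level of these intervals is not stated, and they cover the estimate within a library and not the spread between libraries.

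The recorded technical difference between libraries was the number of read files, 6 for replicates 1 and 2 and 4 for replicates 3 and 4. The gap between quantifications split the same way. In the median gene of the 9, the second quantification was 74.5 and 72.3% of the gene table's TPM in replicates 1 and 2. In replicates 3 and 4 it was 95.6 and 92.1%. The part of the read files in this gap was not tested. In the edgeR quasi-likelihood test of 6 over 4 read files, 0 of 12701 genes passed an adjusted p under 0.05 (0.0%), with 290 genes at an unadjusted p under 0.05, none of them among the 9. DESeq2's Wald test called 33 of the same 12701 genes and 37 of 21189 genes without that filter, none of the 9 in either case, and edgeR without the filter called 18. The largest differences were a log2 fold change of 0.42 (SE 0.26) for Traf3 and -0.40 (SE 0.40) for Ticam2, both with an adjusted edgeR p of 0.9999. For the remaining genes the log2 fold changes lay between -0.27 (SE 0.35, Ikbke) and 0.15 (SE 0.23, Chuk), each within 1 SE of 0 and with the same adjusted p.

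By the rule of smallest root mean square difference between deviations on the log2(TPM + 0.1) scale over 4 libraries, the genes most like Ticam2 among 6702 were Plcl2 (0.037 log2 units), Plxnc1 (0.045) and Rhoq (0.047). Plcl2 stood at 17.0, 38.0, 30.6 and 33.8 TPM in replicates 1 to 4. Plxnc1 stood at 36.4, 83.1, 72.5 and 75.1 TPM, and Rhoq at 12.1, 24.6, 20.8 and 22.1 TPM. All were low in replicate 1 and highest in replicate 2, and with 4 libraries many genes can share such a pattern.

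The rest of the pathway was read from 9 lists of 96 genes, of which 93 were at 1 TPM or above in every library and 28 of 95 tested were variable, beside 33.1% of all genes. Upstream of the adaptors, 9 of 12 genes reached 1 TPM in every library and 4 of 11 tested were variable. Cd14, the co-receptor that hands lipid to Toll-like receptor 4, was the highest at 1461 ± 397 TPM (SD, n = 4). Sarm1, an adaptor known in human cells as an inhibitor of TRIF, was the lowest at 0.08, 0.02, 0.02 and 0.05 TPM in replicates 1 to 4, and Lbp, the lipopolysaccharide-binding protein gene, had the widest ratio at 3.76 from a mean of 1.19 ± 0.46 TPM.

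In the MyD88 branch with the TAK1 kinase complex, 12 of 12 genes reached 1 TPM, the median was 29.8 TPM and 1 of 12 was variable. Ube2v1, a partner of the ubiquitin-conjugating enzyme for lysine-63 chains, was highest at 126.3 ± 12.1 TPM (SD, n = 4), and Tab3, a ubiquitin-binding subunit of the TAK1 complex, was lowest at 3.71 ± 1.08 TPM. Peli1, a ubiquitin ligase of this route, was the variable one, with 34.0, 59.6, 27.3 and 70.1 TPM in replicates 1 to 4, low in replicates 1 and 3.

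The lists closest to the TBK1 and IKK kinases were detected throughout. Among scaffolds and regulators of TBK1, 18 of 18 genes reached 1 TPM and 4 of 18 were variable (Optn, Birc3, Usp18 and Traf3ip3); Socs3, a cytokine signalling inhibitor, was highest at 565.3 ± 149 TPM and Traf3ip2 lowest at 1.25 ± 0.275 TPM (SD, n = 4). Traf3ip3 had the widest ratio of that list at 2.91. Among linear ubiquitin and NEMO regulators, 10 of 10 reached 1 TPM and 0 of 10 were called variable by the chi-square test with the limit of 2, while all 10 passed its adjusted p under 0.05. Tnfaip3, which encodes the deubiquitinase A20, was highest there at 958.3 ± 152 TPM and Tradd, a death receptor adaptor, lowest at 9.63 ± 2.00 TPM, and Otulin, a deubiquitinase of linear chains, had the widest ratio at 1.64.

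Of 8 genes for other sensors that use TBK1, 5 were variable (Tmem173, Cgas, Ddx58, Ifih1 and Zbp1), and the median ratio was 2.27. The RNA helicase gene Ddx3x was highest at 140.7 ± 18.4 TPM and the DNA sensor gene Cgas lowest at 7.97 ± 3.26 TPM (SD, n = 4). Ifih1, the gene of the RNA sensor MDA5, stood at 28.1, 55.9, 29.5 and 69.8 TPM in replicates 1 to 4, low in replicates 1 and 3 and with the widest ratio of the list at 2.50.

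Among substrates of the kinases, 12 of 12 genes reached 1 TPM, the median was 94.0 TPM and 1 of 12, Foxo3, was variable. Nfkbia, the gene of IκBα, was highest at 1937 ± 315 TPM, and Foxo3, a forkhead transcription factor gene, lowest at 17.0 ± 5.43 TPM (SD, n = 4). The transcription factor gene Irf3, the substrate of TBK1 and IKKε, stood at 24.9, 42.0, 32.1 and 33.9 TPM, near the level of Ticam1; Irf3 was added here after its values were seen.

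In the noncanonical list 7 of 7 genes reached 1 TPM and 3 of 7 were variable. Tnfrsf1b, a TNF receptor gene, was highest at 343.5 ± 36.1 TPM and Map3k14, which encodes the IKKα-activating kinase NIK, lowest at 10.2 ± 3.78 TPM (SD, n = 4). Tnfrsf11a, the RANK receptor gene, stood at 49.2, 17.8, 25.6 and 19.0 TPM in replicates 1 to 4, high in replicate 1. Among chaperones and partners of IKK, 7 of 7 reached 1 TPM and 1 of 7 was variable, Hsp90aa1, at 263.1, 119.3, 221.7 and 90.5 TPM; Hsp90ab1 was highest at 518.4 ± 178 TPM and Erc1 lowest at 4.06 ± 1.05 TPM.

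Genes listed as early targets of the TRIF branch differed far more between libraries than the 9 genes did. Their dependence on TRIF was not measured here, and the labels differ on the stimulus. Of 10 such genes, 9 were variable, all but Irf1, and the median ratio of highest to lowest scaled count was 5.09, beside 1.23 for the 9. Ifnb1, the interferon-β gene, stood at 49.9, 179.7, 74.6 and 262.7 TPM in replicates 1 to 4. Cxcl10, an interferon-inducible chemokine gene and the highest by mean, stood at 416.6, 1533, 247.0 and 1485 TPM, and Gbp2, a guanylate-binding protein gene with the lowest mean and the widest ratio (7.28), at 32.1, 225.9, 62.4 and 163.1 TPM.

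Each of the 10 targets was lower by TPM in both of replicates 1 and 3 than in both of replicates 2 and 4. So was 1 of the 9 genes, Ticam2, beside 23.7% of genes tested. This pattern was chosen after the values were seen. In the second quantification Ticam2 stood at 6.84, 13.1, 16.2 and 16.9 TPM in replicates 1 to 4, which did not give this order. The 7 macrophage markers summed to 19486, 35124, 20317 and 28164 TPM in replicates 1 to 4, lower in replicates 1 and 3. Lyz2 had the highest mean of them, 19685 TPM, and so the most weight in that sum. Of the same list, Adgre1 had a ratio of highest to lowest scaled count of 1.22 and Cd14 of 1.87. The 6 neutrophil precursor markers summed to 23.3, 9.59, 89.9 and 5.12 TPM, higher in replicates 1 and 3. Ngp had the highest mean of these 6, 23.5 TPM, and so the most weight in their sum. The lowest of these 6 had a mean of 0.03 TPM. The part of these sums in the targets' values was not tested. As median deviations from each gene's own mean on the log2(TPM + 0.1) scale, the targets were at -0.82, 0.71, -0.59 and 0.84 in replicates 1 to 4, while the 9 genes were at -0.03, 0.12, 0.03 and -0.09. The SD over libraries of the median gene was 1.07 log2 units for the targets and 0.25 for the 9. Replicate 3 of Ticam2, at 18.9 TPM, lay near its replicates 2 and 4, unlike replicate 3 of the targets. The difference between the lists was not tested, and the lists were chosen with earlier results of these libraries known.

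**Figure D4:**
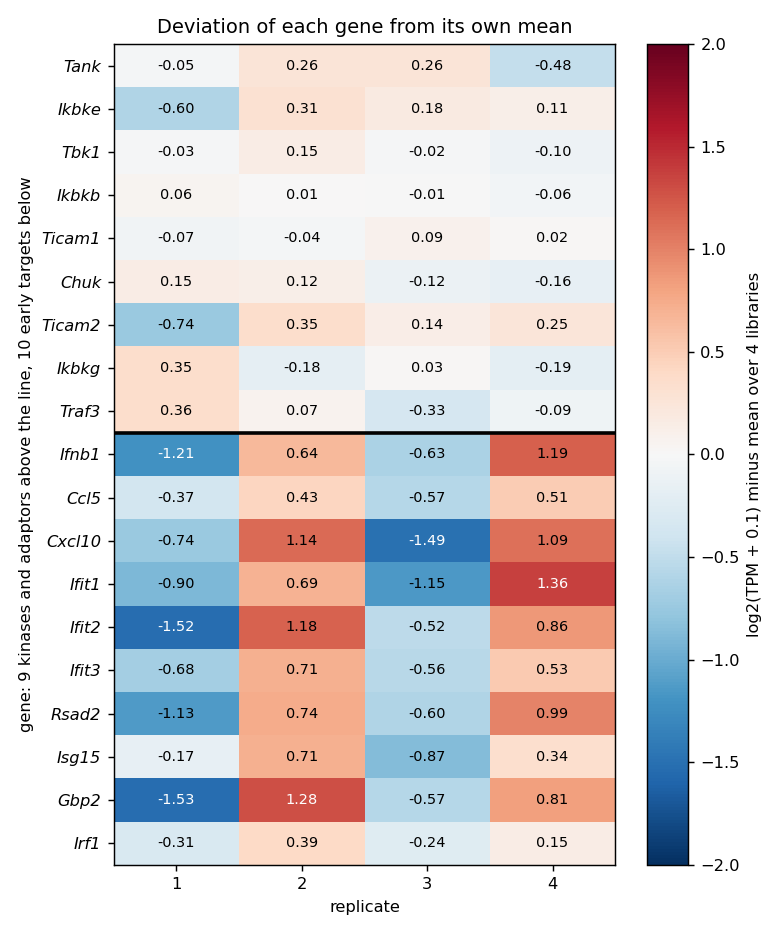
Deviation of each gene in each of replicates 1 to 4 from its own mean on the log2(TPM + 0.1) scale, in log2 units from -2 (blue) to 2 (red); the 9 adaptors and kinases are above the line and 10 early targets below. Rows below the line are blue in replicates 1 and 3 and red in replicates 2 and 4, while rows above it are pale apart from Ikbke and Ticam2 in replicate 1 and Tank in replicate 4.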

How the data were processed

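Each of the 4 libraries had 1 gene table and 2 transcript tables, mapped to build mm10 and annotated with GENCODE M21, per the deposited text lists. A transcriptome alignment was the source of the gene table and of the first transcript table, and the reads were that of the second transcript table. For tools, versions and strand setting, nothing is given in the sources used here. All deposited tables hold expected counts (estimated counts in the second transcript table) and TPM, which the authors scaled over all rows. The first transcript table also holds the deposited percent of each gene's TPM per transcript, and the gene table a deposited credibility interval, a signal of 0 or more with no level stated. Of 81881 rows of a gene table, 55536 were genes, all of which matched GENCODE M21; rows naming no gene held 0.103 to 0.118% of counts and entered neither library sizes nor tests.

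Members were taken as listed, and members and gene lists were chosen with earlier results of these data known. Besides the 9 members, the genes named are the highest, the lowest and the widest-ranging gene of each list and the 3 genes most like a variable member among those with a mean of at least 10 TPM. Expected counts were rounded. Spread was tested where the mean count reached 10, by chi-square (3 degrees of freedom) against TMM effective library sizes; the contrast of 6 over 4 read files used edgeR's quasi-likelihood test, with DESeq2 as an alternative and Benjamini-Hochberg adjustment at 0.05. Estimates of the second transcript table were added up per gene and are called the second quantification. Isoform starts within 1000 bases were grouped. Both count tests were checked on simulated data.

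R 4.3.3, edgeR 4.0.16, limma 3.58.1, DESeq2 1.42.0, Python 3.11.15, NumPy 2.4.6, SciPy 1.17.1, pandas 2.3.3, statsmodels 0.14.6 and matplotlib 3.10.9 were used.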

Additional observations from a re-analysis of the deposited data

Results flagged for a closer look

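In each case below, 1 library lay apart from the other 3 by Dixon's ratio of its gap to the whole range, above its 95% critical value for 4 samples. Of 44 sets of 4 values checked, 4 exceeded it, and chance alone passes about 1 set in 20. The ratio of Tbk1 to Ikbke TPM had a Dixon ratio of 0.949, from 1.08 in replicate 1 beside 0.625 to 0.648 in the other libraries. The share of Traf3-201 in the first transcript table had a Dixon ratio of 0.869, from 44.2% in replicate 3, and that of the retained-intron transcript Traf3-205 had 0.858, from 17.5% in the same library. The share of the retained-intron transcript Chuk-205 in the first table had a Dixon ratio of 0.841, from 5.18% in replicate 2 beside 1.40 to 2.00% in the others. In the second table the share of Chuk-205 was also highest in replicate 2, at 7.67% beside 4.78 to 5.56%, while Traf3-201 was lowest in replicate 1, at 51.4%.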

How the results depend on the processing

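The median of the 9 genes was 31.5 TPM; it was 23.4 TPM in the second quantification and 28.03 TPM from protein-coding transcripts alone, an alternative chosen after seeing the data, and 30.9 to 32.1 TPM when 1 library was left out. By mean TPM, each of these alternative quantifications kept 7 of the 8 neighbour pairs in order. The reversed pair was Ticam2 (13.3 TPM) and Ikbkg (14.4 TPM) in the second quantification, and Ikbkb and Ticam1 from protein-coding transcripts. Within the second quantification Ticam1 was below Chuk in replicates 1 and 2 and above it in replicates 3 and 4, so their ranges overlapped there. The ratio of Chuk to Ikbkb was 0.589 on average and 0.657 in the second quantification. A limit of 1.5 in place of 2 moved the count of variable genes from 4183 to 7302 and that of the 9 genes from 1 to 4. Leaving out 1 library gave 2100 to 3687 variable genes, lowest without replicate 1, and 0 to 1 of the 9. For 6 over 4 read files, 37 genes passed by DESeq2's Wald test, 33 by it on the genes of edgeR's filter (chosen after seeing the data), 18 without a filter on low counts and 10 in the second quantification, and leaving out 1 library gave 0 to 98, the 98 without replicate 2; with 1 sample left in an arm, that sample is assumed to vary like the others. None of the 9 passed in any of these settings, with a lowest adjusted p of 0.128 without replicate 2. The log2 fold changes of Ticam2, Tank, Tbk1, Ikbke and Ikbkg in this contrast changed sign when 1 library was left out; none was past the threshold, and no called result changed direction. With pseudocount 1 in place of 0.1, Plcl2, Plxnc1 and Rhoq took places 1, 10 and 3 in likeness to Ticam2. No paired analysis was possible because the libraries form 1 group and the libraries set against each other share no replicate number. Shares of low transcripts such as Traf3-205 rest on few reads.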
